A study of Mus musculus with 18 samples.

Results

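Solute carriers were followed in mouse macrophages loaded with oxidized low-density lipoprotein (oxLDL). They were taken as the genes whose symbol begins with Slc and a digit and that reached 0.1 RPKM in at least 3 of the 18 libraries. RPKM scale the reads of a gene by its transcript length and by library depth, so levels can be compared between genes. The iron carriers Slc40a1, Slc11a1 and Slc11a2, the cystine carrier Slc7a11, the zinc exporter Slc30a1 and the glucose carrier Slc2a1 were left out. Of 333 such symbols, 117 stayed under the limit, 6 were left out by name and 210 were kept, among 12838 genes that passed the same limit. Of the 210, 205 encode carriers of 44 numbered families. The other 5 are not carriers but were named after a neighbor or partner: Slc2a4rg-ps, Slc4a1ap, Slc7a6os, Slc9a3r1 and Slc9a3r2. A level of 0.1 RPKM was reached in all 18 libraries by 188 of the genes, and 0 passed through 1 group alone. At the limit, the third-highest library of Slc16a11 stood at 0.102 RPKM and that of Slc9a2, left out, at 0.0989 RPKM.

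The libraries were made from total RNA of bone marrow-derived macrophages (BMDM), which develop from marrow precursors in the presence of M-CSF. The mice had a C57BL6 background and were either Apoe-/- or Apoe-/-/Treml4-/- (DKO), so Apoe was deleted in every group, controls included. After 7 days of differentiation the cells received PBS (untreated), 10 µg/ml oxLDL (oxLDL 10) or 60 µg/ml oxLDL (oxLDL 60) for 16 h per the series description, with 3 biological replicates in each of the 6 groups. The study's methods give a longer exposure and a treatment label names LPS, and neither point was resolved. Sex and age were not given by the labels used here.

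Solute carriers are membrane proteins that move small molecules across the plasma membrane and the membranes of mitochondria, lysosomes and the Golgi apparatus. Family numbers group them by sequence, and members of a family often share a substrate: families 1, 6, 7, 36, 38 and 43 carry amino acids, family 39 brings zinc into the cytosol, family 25 serves the inner mitochondrial membrane and family 35 delivers nucleotide sugars. In macrophages they supply arginine and glucose during activation, release lactate, and return amino acids, heme and metals from the lysosome after engulfed material has been digested.

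Library depth ranged from 39.7 M to 54.2 M reads (1.36 times), and 3 reads over 1 kb corresponded to 0.0553 to 0.0755 RPKM. Treml4 lay between 1.86 and 8.39 RPKM in the 9 Apoe-/- libraries and between 0 and 0.0116 RPKM in the 9 DKO libraries, and residual Apoe transcripts lay between 0.349 and 4.13 RPKM. The macrophage markers Adgre1, Csf1r and Cd68 stood at 339 RPKM or more in every library, while T cell and B cell markers summed to at most 0.169 and 0.0676 RPKM. Xist, transcribed from the inactive X chromosome of females, lay between 7.25 and 14.5 RPKM in Apoe-/- replicate 2 and DKO replicate 3 at every treatment, and at or below 0.069 RPKM in the other 12 libraries. Within a genotype, libraries with the same replicate number deviated together and are called the same animal below. In bulk RNA, fewer cells of a type and less RNA per cell cannot be told apart.

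The most abundant solute carriers were mitochondrial. The adenine nucleotide carriers Slc25a5 and Slc25a4, which exchange ATP and ADP, averaged 223 and 110 RPKM over the 6 untreated libraries, and the mitochondrial phosphate carrier Slc25a3 averaged 139 RPKM. Next came the taurine carrier Slc6a6 at 100.1 RPKM, the heme carrier Slc48a1 at 81.6 RPKM, the amino acid carrier heavy chain Slc3a2 at 81.2 RPKM and the zinc carrier Slc39a1 at 78.8 RPKM. The endolysosomal peptide and histidine carrier Slc15a3 at 73.2 RPKM, the lactate exporter Slc16a3 at 66.1 RPKM and the fatty acid carrier Slc27a1 at 62.6 RPKM completed the first 10. Of these 10, Slc48a1 alone changed past the limits at either dose in either genotype. Levels spread widely below them: 63 members exceeded 10 RPKM in every library, 49 averaged under 1 RPKM, and the median of the 210 means was 5.64 RPKM.

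To ask how lipid loading bears on the carriers, oxLDL 60 was compared with untreated cells of the same genotype. Among the genes called higher in both genotypes were Slc6a9 (glycine), Slc1a4 (serine and alanine), Slc22a4 (organic cations), Slc26a11 (sulfate), Slc39a10 (zinc), Slc6a8 (creatine) and Slc48a1 (heme). Among those called lower in both were Slc13a3 (dicarboxylates), Slc7a2 (arginine), Slc2a6 (hexoses), Slc31a1 and Slc31a2 (copper), Slc4a7 (bicarbonate), Slc28a2 (nucleosides) and Slc39a13 (zinc). Calls required a fold change of at least 1.4 and a limma adjusted p (Benjamini-Hochberg over all genes) under 0.05, on the log2(RPKM + 0.1) scale. In Apoe-/- cells 41 of the 210 were called, 26 higher and 15 lower, or 19.5% of the members beside 13.9% of all genes tested. In DKO cells 30 were called, 13 higher and 17 lower, or 14.3% beside 12.2% of all genes. The excess over all genes lay among the higher calls in Apoe-/- (12.4% beside 7.13%), whereas the lower calls there made up 7.14% beside 6.78%, and in DKO the shares were 6.19% beside 4.87% higher and 8.10% beside 7.31% lower. With libraries rescaled by the median ratio the split became 19 higher and 16 lower in Apoe-/- and 16 higher and 14 lower in DKO. Over all 12838 genes the rescaled split was 770 higher and 1020 lower in Apoe-/-, and 771 higher and 799 lower in DKO. The median log2 change of the members was 0.10 in Apoe-/- and 0.02 in DKO, and that of all genes 0.06 and -0.06.

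Most carriers called in DKO were also called in Apoe-/-, in comparisons that share no library. The overlaps and counts below were not computed over all genes. They describe the members and do not set them apart from other genes. Of the 26 higher calls in Apoe-/- and 13 in DKO, 13 were shared, which is 50.0% of the first and 100% of the second. Of the 15 and 17 lower calls, 13 were shared, or 86.7% and 76.5%. Among the 13 genes called higher in Apoe-/- alone, all 13 changes in DKO were positive, from 0.13 to 0.48, and 8 had an adjusted p under 0.05 there, so that they missed on the size of the change. All 41 calls in Apoe-/- and all 30 in DKO went the same way in each of the 3 animals. The calls were made on these same libraries, so this describes them and is not separate evidence. At the other end, 165 of the 210 were called in neither genotype, and 108 changed by less than 0.25 on the log2 scale in both. Across the 210 members the 2 sets of changes had Pearson's r of 0.93 and Spearman's rho of 0.80, given as a description, since genes are not independent replicates.

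**Figure D1:**
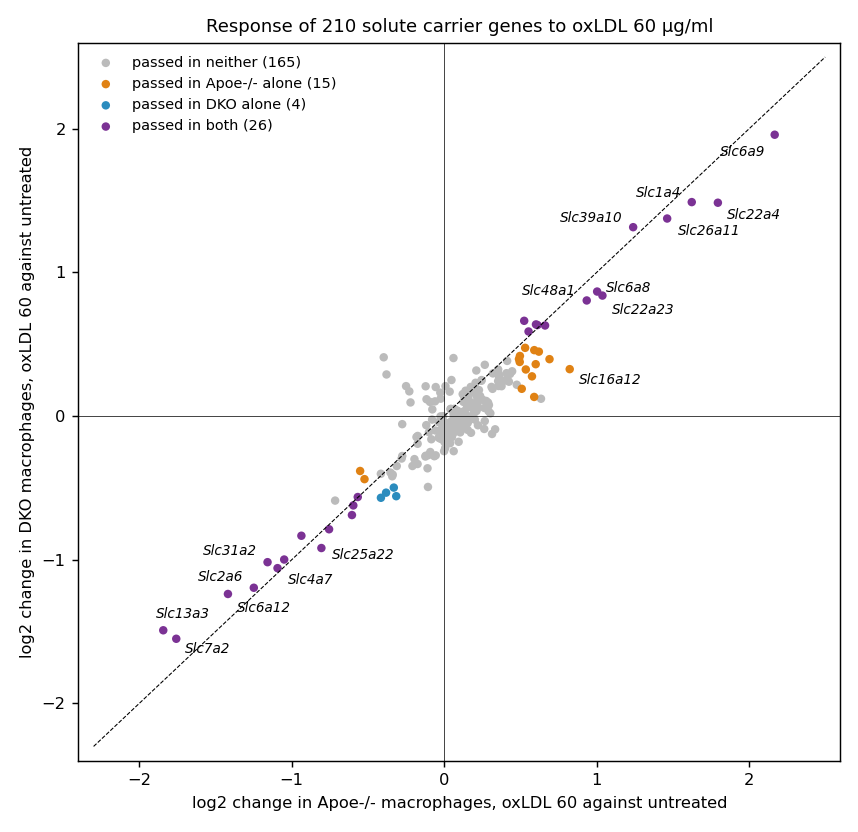
Each point is 1 of the 210 solute carrier genes, placed by its log2 change at oxLDL 60 against untreated in Apoe-/- (horizontal) and in DKO macrophages (vertical), with the dashed line marking equal change and colors marking adjusted p under 0.05 with a fold change of at least 1.4. The 26 genes that passed in both lie along the dashed line from Slc13a3 and Slc7a2 at the lower left to Slc6a9 at the upper right, and the 15 that passed in Apoe-/- alone lie between -0.55 and 0.82 on the horizontal axis.

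The promoters of the 26 carriers called in both genotypes were searched because these genes moved together. RefSeq (GRCm38.p6) gave a promoter for 10 of the 13 that rose (not for Slc26a11, Slc48a1 and Slc6a8), for 12 of the 13 that fell (not for Slc7a2) and for 161 of all 210. In the 250 bases before the start, the E-box CACGTG was present in 4 of the 10 that rose and in 1 of the 12 that fell, beside 16.1% of members and 6.86% of all genes with a promoter. The antioxidant response element TGACNNNGC was present in 2 of 10 and 4 of 12, beside 21.1% of members and 11.5% of all genes. The CHOP-ATF4 element TGATGNAA was present in 1 of 10 and 1 of 12 (3.91% of all genes), and the interferon-stimulated response element, given by name only, in 0 of 10 and 1 of 12 (3.46% of all genes). Both strands were read, a gene with several promoters counted once, and none of the 4 motifs overlapped another in the promoters shown. The sequences below are those of the glycine carrier Slc6a9, the strongest rise, of Slc22a4 and the lysosomal amino acid carriers Slc36a1 and Slc38a7, which hold the E-box, and of Slc13a3 and the copper carrier Slc31a2, which fell and hold the antioxidant element. Each gives the 250 bases before the start, 5′ to 3′ on the gene's strand, in GRCm38.p6, with capitals for the matches to these 4 motifs.
Slc6a9 (chr4:117849100-117849349, plus strand): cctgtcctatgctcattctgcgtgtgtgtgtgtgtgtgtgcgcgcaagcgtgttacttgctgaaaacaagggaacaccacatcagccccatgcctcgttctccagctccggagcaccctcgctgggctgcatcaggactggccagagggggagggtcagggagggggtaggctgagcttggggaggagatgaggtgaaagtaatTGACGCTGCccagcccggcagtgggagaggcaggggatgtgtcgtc
Slc22a4 (chr11:54028105-54028354, minus strand): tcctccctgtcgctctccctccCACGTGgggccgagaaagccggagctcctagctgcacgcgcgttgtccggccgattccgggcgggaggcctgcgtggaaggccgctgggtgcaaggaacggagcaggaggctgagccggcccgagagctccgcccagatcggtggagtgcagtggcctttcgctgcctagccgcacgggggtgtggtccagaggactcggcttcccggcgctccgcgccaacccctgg
Slc36a1 (chr11:55204090-55204339, plus strand): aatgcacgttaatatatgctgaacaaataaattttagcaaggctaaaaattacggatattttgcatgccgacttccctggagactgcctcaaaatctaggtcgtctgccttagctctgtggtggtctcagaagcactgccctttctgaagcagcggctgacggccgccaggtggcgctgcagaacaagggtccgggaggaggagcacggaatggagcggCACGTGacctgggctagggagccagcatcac
Slc38a7 (chr8:95853492-95853741, minus strand): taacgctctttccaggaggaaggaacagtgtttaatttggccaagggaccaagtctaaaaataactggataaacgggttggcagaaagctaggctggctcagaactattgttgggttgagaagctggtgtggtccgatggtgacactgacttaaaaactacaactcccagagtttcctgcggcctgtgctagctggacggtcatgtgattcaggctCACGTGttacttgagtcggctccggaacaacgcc
Slc13a3 (chr2:165473198-165473447, minus strand): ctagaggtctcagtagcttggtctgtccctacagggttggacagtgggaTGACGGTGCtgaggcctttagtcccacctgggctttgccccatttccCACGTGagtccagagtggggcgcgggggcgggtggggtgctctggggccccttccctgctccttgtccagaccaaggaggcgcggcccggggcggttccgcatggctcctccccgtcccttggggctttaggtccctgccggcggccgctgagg
Slc31a2 (chr4:62286179-62286428, plus strand): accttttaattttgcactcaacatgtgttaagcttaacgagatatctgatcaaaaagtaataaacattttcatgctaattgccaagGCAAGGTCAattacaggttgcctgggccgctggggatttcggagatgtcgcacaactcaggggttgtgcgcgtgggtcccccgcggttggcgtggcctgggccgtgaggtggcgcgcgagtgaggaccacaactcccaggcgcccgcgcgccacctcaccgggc
A match describes the letters only. The E-box began 31 bases before the start in Slc36a1, 34 in Slc38a7, 228 in Slc22a4 and 154 in Slc13a3, and the antioxidant element began 46 bases before it in Slc6a9, 201 in Slc13a3 and 164 in Slc31a2. The Slc6a9 sequence is 1 of 3 promoters listed for that gene. Where several were listed, the promoter with the most matches to the 4 motifs was the one shown.

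The 31 amino acid and peptide carriers moved both ways. In Apoe-/- 8 were called higher and 4 lower, and in DKO 6 higher and 4 lower. For this and the later class and list counts at oxLDL 60, the shares over all genes in Apoe-/- were 7.13% higher and 6.78% lower. In DKO they were 4.87% higher and 7.31% lower. No class or list was tested as a set. The class summed to 571 RPKM over the untreated libraries, 627 RPKM in Apoe-/- and 629 RPKM in DKO at oxLDL 60.

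Slc6a9 (GLYT1, chromosome 4, 117834506 to 117875198, GENCODE M21), which takes up glycine, rose most of all members. It stood at 0.652, 0.59 and 0.531 RPKM in untreated Apoe-/- replicates 1 to 3 and at 3.20, 2.57 and 3.28 RPKM with oxLDL 60. Untreated DKO libraries held 0.796, 0.717 and 0.647 RPKM, and those with oxLDL 60 held 3.70, 2.88 and 2.74 RPKM. All treated libraries lay above all untreated ones in both genotypes, and the log2 changes were 2.17 (SE 0.17, limma adjusted p = 5.95e-08) and 1.96 (SE 0.17, limma adjusted p = 2.3e-07). Nearly all of the rise came between the doses, since oxLDL 10 changed it by 0.22 and 0.39 (limma adjusted p = 0.48 and 0.32), and oxLDL 60 against oxLDL 10 by 1.94 and 1.56. Slc1a4 (ASCT1), which exchanges serine, alanine and threonine, stood at 0.897, 0.342 and 0.538 RPKM untreated and 2.56, 1.28 and 2.14 RPKM with oxLDL 60 in Apoe-/-, and at 1.05, 1.04 and 0.539 against 2.93, 2.88 and 1.96 RPKM in DKO. The groups did not overlap, although animals differed widely within a group, and the changes were 1.62 (SE 0.40, limma adjusted p = 0.00518) and 1.49 (SE 0.40, limma adjusted p = 0.0108). Without DKO untreated replicate 3 the DKO change was 1.21 and was no longer called (limma adjusted p = 0.0576). Every other alternative kept both calls, the fit with the animal as a replicate block among them.

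The creatine carrier Slc6a8, on the X chromosome, rose from 30.1, 31.3 and 30.3 RPKM to 63.0, 59.1 and 62.0 RPKM in Apoe-/- (log2 change 1.00, SE 0.18) and from 42.9, 45.6 and 27.2 to 72.1, 77.2 and 58.4 RPKM in DKO (log2 change 0.87, SE 0.18). DKO replicate 3, the Xist-positive animal, was the lowest of its group at all 3 treatments. The lysosomal carriers Slc36a1 (PAT1, small neutral amino acids out of the lysosome with a proton) and Slc38a7 (glutamine and asparagine out of the lysosome) rose by 0.61 and 0.55 in Apoe-/- and by 0.63 and 0.59 in DKO (SE 0.08 to 0.10). Slc38a7 was not called in Apoe-/- without untreated replicate 1, where its change was 0.45. The intestinal and renal neutral amino acid carrier Slc6a19 also passed, by 0.60 and 0.64, at a mean of 0.105 RPKM. Slc7a1 (CAT1, arginine and lysine uptake) and Slc43a2 (LAT4, branched-chain amino acids and methionine) were called in Apoe-/- alone, with changes of 0.60 and 0.53 there and 0.36 and 0.48 in DKO.

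The cationic amino acid carrier Slc7a2 (CAT2, chromosome 8, 40862396 to 40922308), which supplies arginine to nitric oxide synthase and arginase in activated macrophages, fell in both genotypes. It stood at 6.90, 9.89 and 7.82 RPKM untreated and 2.44, 2.22 and 2.33 RPKM with oxLDL 60 in Apoe-/-, and at 7.18, 7.51 and 7.87 against 2.48, 2.74 and 2.30 RPKM in DKO. Every treated library was below every untreated one, with log2 changes of -1.76 (SE 0.10, limma adjusted p = 2.12e-09) and -1.55 (SE 0.10, limma adjusted p = 1.05e-08). Slc7a1 and Slc7a2 thus moved in opposite directions in Apoe-/- cells, and their levels there were 8.12, 6.62 and 9.84 RPKM for Slc7a1 beside the 2.22 to 2.44 RPKM of Slc7a2, while untreated Slc7a1 stood at 4.82 to 5.68 RPKM. Slc7a7 (y+LAT1), which exports cationic for neutral amino acids and is deficient in lysinuric protein intolerance, fell by 0.61 in Apoe-/- and by 0.69 in DKO (SE 0.09). Slc7a8 (LAT2, large neutral amino acids) was called lower in Apoe-/- alone, at -0.52 beside -0.44 in DKO. The heavy chain Slc3a2, which pairs with these light chains, changed by 0.18 and 0.17 and was not called.

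The betaine and GABA carrier Slc6a12, an uptake system for osmolytes, fell from 5.88, 10.5 and 8.87 RPKM to 2.33, 4.27 and 2.71 RPKM in Apoe-/- and from 4.01, 3.45 and 7.94 to 1.56, 1.29 and 3.78 RPKM in DKO. Treated and untreated libraries overlapped in DKO, where treated replicate 3 lay above untreated replicate 2. Apoe-/- replicate 2 and DKO replicate 3, the Xist-positive animals, were the highest of their groups at all 3 treatments, and every animal fell. The log2 changes were -1.42 and -1.24 (SE 0.44, limma adjusted p = 0.0208 and 0.0472), and that fit leaves the differences between animals in its spread. Both stayed called in the fit with the animal as a replicate block. Of 13 alternatives, 5 lost the Apoe-/- call and 8 the DKO call. Leaving out 1 library ended the Apoe-/- call for untreated replicates 2 and 3 and treated replicates 1 and 3 (nearest to 0 at -1.24), and the DKO call for untreated replicates 1 and 3 and treated replicates 1 and 2 (nearest to 0 at -0.88). Its neighbor in the family, the GABA carrier Slc6a13, was called lower in DKO alone, at -0.56 beside -0.31 in Apoe-/-.

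Amino acid carriers known as targets of the stress factor ATF4 did not move as 1 block. Of the 8 on that list, 7 were members (Slc7a3 stayed under the limit), and 3 were called higher in Apoe-/- and 2 in DKO. Over all genes 7.13% and 4.87% were called higher. The median log2 change of the list was 0.38 and 0.21 beside 0.06 and -0.06 over all genes. The called members were Slc6a9 and Slc1a4 in both genotypes and Slc7a1 in Apoe-/-. Of the others, Slc7a5 (LAT1, leucine uptake) changed by 0.38 and 0.21, Slc38a2 (SNAT2) by 0.13 and 0.03, and Slc1a5 (ASCT2, glutamine uptake) by -0.06 and -0.28, none called.

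**Figure D2:**
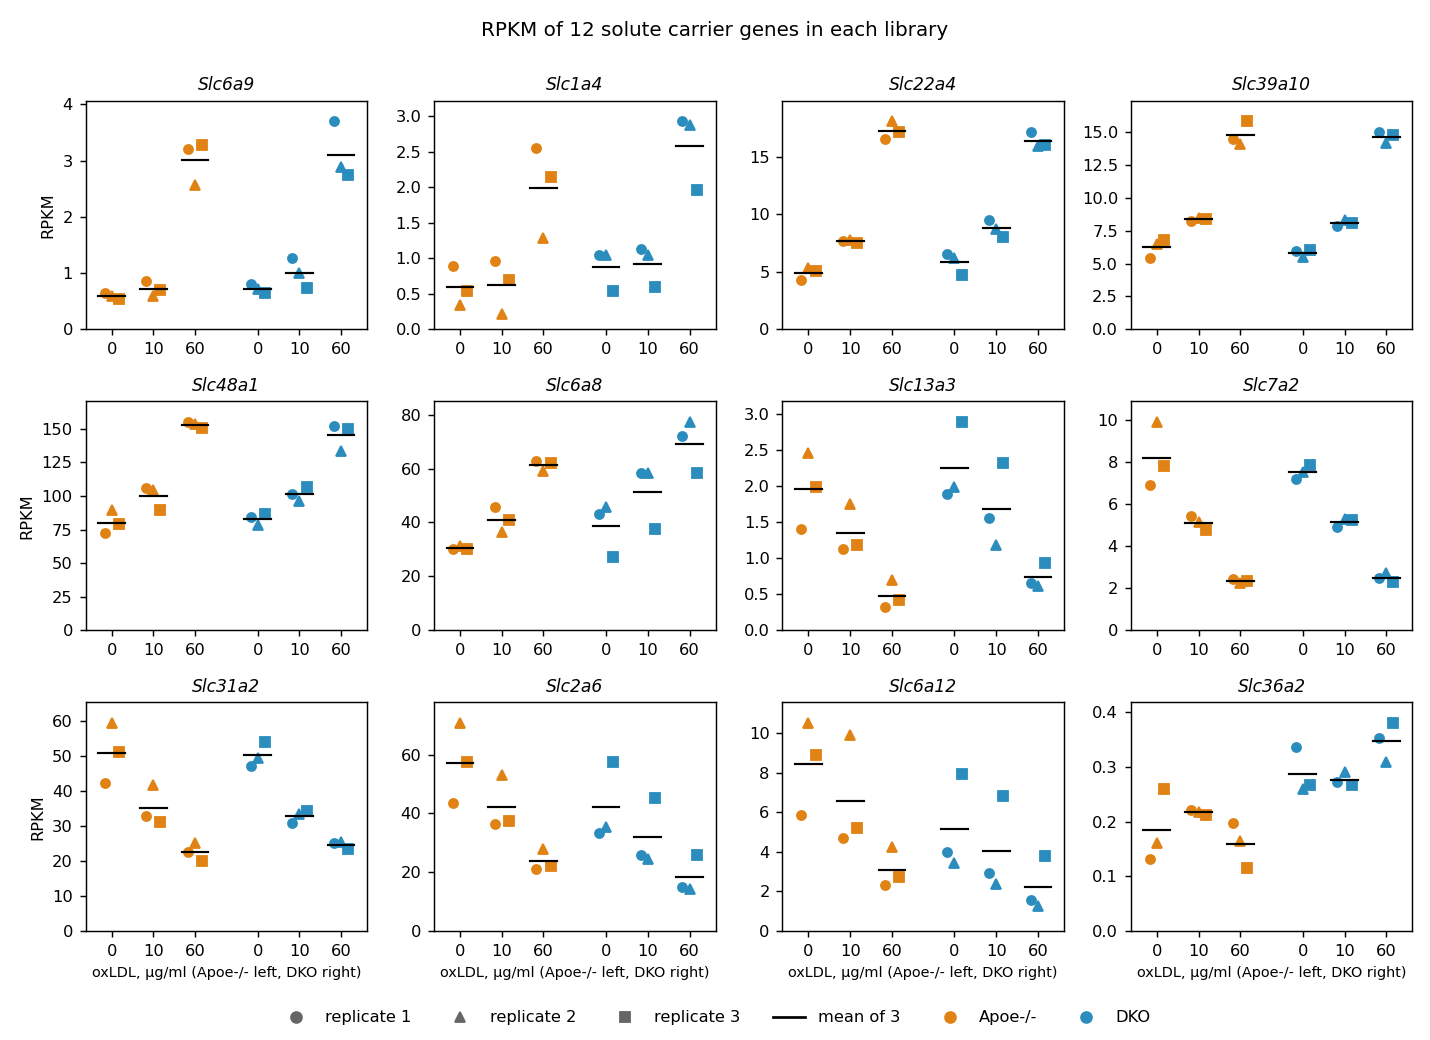
RPKM on linear axes from 0 for 12 solute carriers in each of the 18 libraries, with oxLDL in µg/ml along the bottom, Apoe-/- in orange at the left and DKO in blue at the right, 1 symbol per replicate number and a line at the mean of 3. Slc6a9 and Slc1a4 stay near their untreated level at 10 µg/ml, Slc22a4, Slc39a10, Slc48a1, Slc7a2 and Slc31a2 move at both doses, and in Slc6a12 and Slc2a6 Apoe-/- replicate 2 and DKO replicate 3 lie above the others at every dose.

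Of the 23 metal carriers, 2 were called higher and 3 lower in Apoe-/-, and 2 higher and 4 lower in DKO. Zinc carriers moved both ways and both copper carriers fell. Slc39a10 (ZIP10), which brings zinc into the cytosol, stood at 5.43, 6.47 and 6.77 RPKM untreated and 14.5, 14.1 and 15.8 RPKM with oxLDL 60 in Apoe-/-, and at 5.92, 5.52 and 6.05 against 15.0, 14.2 and 14.8 RPKM in DKO. The change exceeded the spread between animals many times over, at 1.24 (SE 0.07, limma adjusted p = 2.12e-09) and 1.32 (SE 0.07, limma adjusted p = 1.9e-09). Slc39a13 (ZIP13), a zinc carrier of intracellular vesicles, went the other way, from 12.3, 14.3 and 13.5 to 7.61, 6.31 and 6.94 RPKM in Apoe-/- and from 13.0, 12.6 and 14.4 to 7.75, 7.42 and 7.09 RPKM in DKO, or -0.94 and -0.83 (SE 0.08). Slc39a14 (ZIP14, zinc and non-transferrin iron uptake) was called lower in DKO alone, at -0.53 beside -0.38, and the most abundant zinc carrier, Slc39a1, changed by -0.19 and -0.30 without a call.

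Slc48a1 (HRG1), which moves heme from the phagolysosome to the cytosol, was the most abundant carrier that changed. It stood at 72.3, 89.2 and 79.0 RPKM untreated and 155, 153 and 150 RPKM with oxLDL 60 in Apoe-/-, and at 84.2, 78.1 and 86.6 against 152, 134 and 150 RPKM in DKO. Treated and untreated libraries were far apart, with log2 changes of 0.94 (SE 0.08, limma adjusted p = 1.58e-07) and 0.81 (SE 0.08, limma adjusted p = 9.94e-07). The copper carriers fell. Slc31a2 (CTR2), an endolysosomal copper carrier, went from 42.3, 59.4 and 51.2 to 22.7, 25.2 and 20.0 RPKM in Apoe-/- and from 47.1, 49.4 and 54.1 to 25.2, 25.6 and 23.4 RPKM in DKO, or -1.16 and -1.02 (SE 0.12). Slc31a1 (CTR1), the plasma membrane copper importer, went from 25.1, 30.4 and 29.9 to 18.3, 19.1 and 18.9 RPKM in Apoe-/- and from 23.9, 23.1 and 26.7 to 16.7, 14.1 and 16.9 RPKM in DKO, or -0.60 and -0.62 (SE 0.09). Both fell in all 6 animals.

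Single carriers of organic cations, sulfate and bicarbonate changed in both genotypes. Slc22a4 (OCTN1, chromosome 11, 53983123 to 54028090), which takes up ergothioneine and carnitine, stood at 4.28, 5.36 and 5.10 RPKM untreated, 7.71, 7.77 and 7.49 RPKM with oxLDL 10 and 16.5, 18.1 and 17.2 RPKM with oxLDL 60 in Apoe-/-. In DKO it stood at 6.56, 6.23 and 4.71, then 9.49, 8.73 and 8.04, then 17.2, 15.9 and 16.0 RPKM. The 3 treatments did not overlap in either genotype, and the changes at oxLDL 60 were 1.80 (SE 0.11, limma adjusted p = 2.05e-09) and 1.49 (SE 0.11, limma adjusted p = 1.75e-08). Slc22a23, an orphan of the same family, was called higher by 1.04 and 0.84 at a mean of 0.124 RPKM, and these were the calls among 10 organic ion and drug carriers. Slc26a11, a sulfate and chloride carrier found at the plasma membrane and in lysosomes, rose from 1.45, 1.47 and 1.74 to 3.84, 5.04 and 4.53 RPKM in Apoe-/- and from 1.15, 1.47 and 1.37 to 3.49, 3.39 and 3.93 RPKM in DKO, or by 1.46 and 1.38 (SE 0.13). Slc4a7 (NBCn1), which brings sodium and bicarbonate into the cell and loads base against acid, fell from 25.8, 26.4 and 27.2 to 12.9, 11.9 and 12.3 RPKM in Apoe-/- and from 30.7, 26.7 and 33.8 to 14.3, 14.0 and 15.1 RPKM in DKO, or by 1.09 and 1.06 (SE 0.07, limma adjusted p = 9.2e-09 and 1.52e-08). They were the 2 calls among 28 carriers of inorganic ions and protons in each genotype.

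The 14 sugar carriers had a median log2 change of 0.28 in Apoe-/- and 0.06 in DKO, beside 0.06 and -0.06 over all genes. Of the 14, 12 changes were positive in Apoe-/- and 10 in DKO, but the most abundant hexose carrier of family 2 among the members fell. Slc2a6 (GLUT6), a lysosomal hexose carrier of inflammatory macrophages, stood at 43.6, 70.6 and 57.5 RPKM untreated and 21.2, 27.9 and 22.2 RPKM with oxLDL 60 in Apoe-/-, and at 33.4, 35.4 and 57.4 against 15.1, 14.4 and 25.8 RPKM in DKO. The groups did not overlap, and the changes were -1.25 and -1.20 (SE 0.27, limma adjusted p = 0.00192 and 0.00318). The Xist-positive animals were again the highest of their groups at every treatment. Slc2a3 (GLUT3, high-affinity glucose uptake) rose in Apoe-/- by 0.54 and changed by 0.32 in DKO, and Slc5a3 (SMIT1, myo-inositol uptake) fell by 0.57 and 0.56. Of 14 sugar carriers, 1 was called higher and 2 lower in Apoe-/-, and 0 higher and 2 lower in DKO. The glucose-6-phosphate carrier Slc37a2, at 59.9 RPKM untreated, changed by 0.36 and 0.21 without a call.

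Slc13a3 (NaDC3, chromosome 2, 165405028 to 165473230), a sodium-coupled carrier of succinate, other dicarboxylates and itaconate, had the most negative change of all members in Apoe-/-. It stood at 1.41, 2.47 and 1.99 RPKM untreated and 0.320, 0.702 and 0.421 RPKM with oxLDL 60 in Apoe-/-, and at 1.89, 1.99 and 2.89 against 0.656, 0.620 and 0.927 RPKM in DKO. The groups did not overlap, with log2 changes of -1.84 (SE 0.27, limma adjusted p = 6.73e-05) and -1.49 (SE 0.27, limma adjusted p = 0.000567). Slc16a10 (TAT1), which by substrate carries aromatic amino acids although its family carries monocarboxylates, fell from 34.1, 38.6 and 37.7 to 21.5, 21.6 and 22.2 RPKM in Apoe-/- and from 40, 38.4 and 41.9 to 24.1, 22.7 and 22.7 RPKM in DKO, or by 0.76 and 0.79 (SE 0.05). In the same class Slc16a9 was called higher in both genotypes, by 0.66 and 0.63 at a mean of 0.29 RPKM, and Slc16a6, a ketone body carrier, and Slc16a12, a creatine carrier of the lens and kidney, were called in Apoe-/- alone, by 0.69 and 0.82. Slc16a12 averaged 0.0445 RPKM and lost its call without any of Apoe-/- untreated replicate 3 (0.74), treated replicate 2 (0.75) or treated replicate 3 (0.73). The lactate exporter Slc16a3 changed by -0.03 and -0.14.

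The nucleoside carrier Slc28a2 (CNT2), which takes up purine nucleosides and uridine with sodium, fell from 7.28, 8.32 and 9.72 to 4.17, 3.89 and 3.93 RPKM in Apoe-/- and from 10.5, 11.7 and 8.43 to 5.49, 5.73 and 4.00 RPKM in DKO. All treated libraries lay below the untreated ones, with changes of -1.05 and -0.999 (SE 0.16, limma adjusted p = 7.67e-05 and 0.000139). Of the 3 equilibrative nucleoside carriers of family 29 none was called, and the lysosomal one, Slc29a3, changed by 0.27 and 0.36.

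The 40 mitochondrial carriers of family 25 formed the largest family and moved little as a whole, with median changes of 0.04 in Apoe-/- and -0.03 in DKO. Of them 3 were called higher and 2 lower in Apoe-/-, and 0 higher and 2 lower in DKO. Slc25a22, which brings glutamate into the matrix, fell in both, from 7.58, 8.34 and 8.28 to 4.68, 3.98 and 5.11 RPKM in Apoe-/- and from 9.58, 9.74 and 9.72 to 5.22, 4.86 and 5.15 RPKM in DKO, or by 0.81 and 0.92 (SE 0.09). In Apoe-/- alone, Slc25a20, the carnitine and acylcarnitine carrier of fatty acid oxidation, rose by 0.62, Slc25a44, a branched-chain amino acid carrier, by 0.59 and Slc25a30 by 0.50, while the iron importer mitoferrin 1, Slc25a37, fell by 0.55. Their changes in DKO were 0.45, 0.46, 0.42 and -0.38, each with a limma adjusted p of at most 0.00645 but under the limit on fold. The dicarboxylate carrier Slc25a10 was called lower in DKO alone, at -0.50 beside -0.33.

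**Figure D3:**
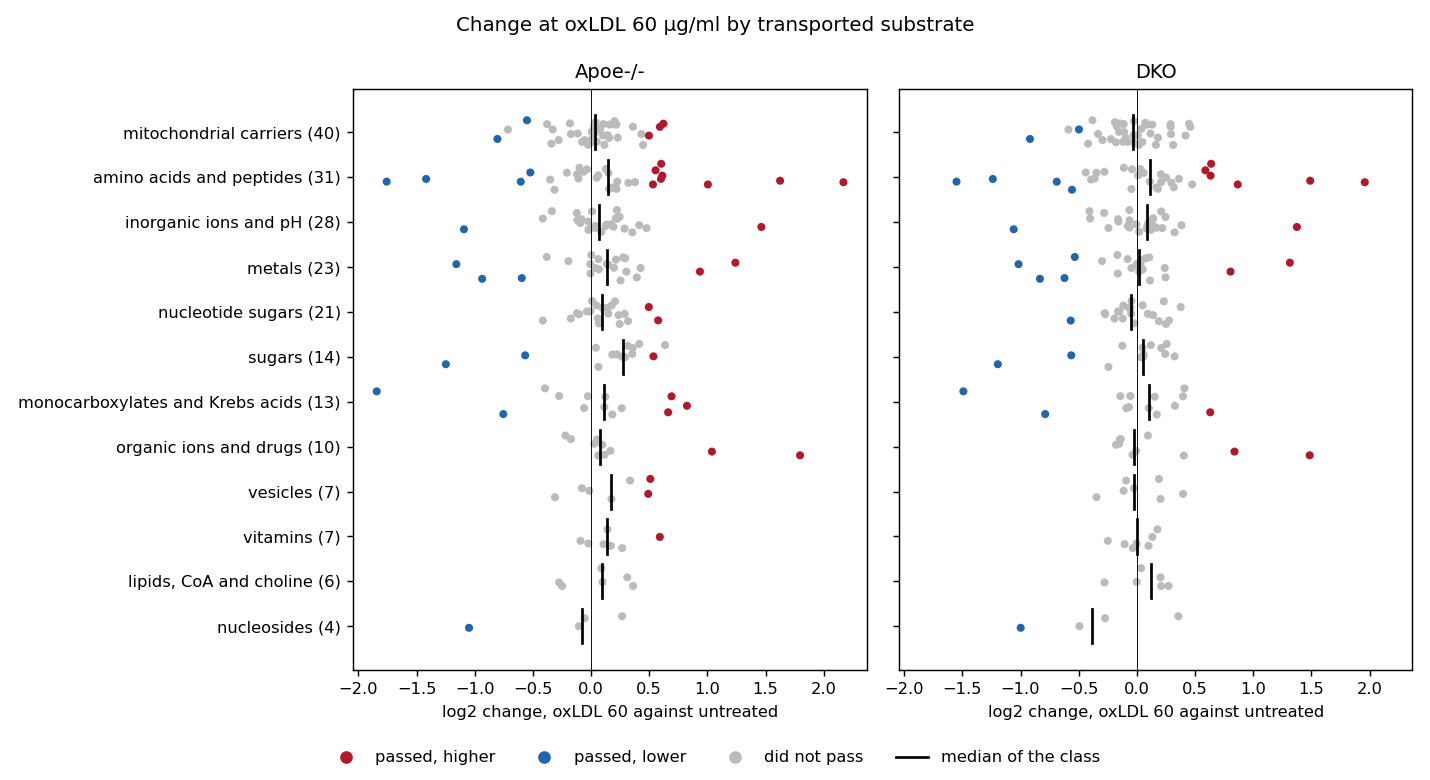
Log2 change at oxLDL 60 against untreated for the members of 12 substrate classes (number of genes in brackets), Apoe-/- at the left and DKO at the right, with genes called higher in red, called lower in blue, others in gray and a black line at the median of the class. Amino acid carriers hold the widest range, from -1.76 to 2.17 in Apoe-/-, and the medians of all 12 classes stay between -0.38 and 0.28.

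Carriers of internal compartments moved both ways. Of 9 carriers on a list of lysosomal ones, 4 were called higher in Apoe-/- and 3 in DKO, with 0 lower. Over all genes 7.13% and 4.87% were called higher. The median log2 changes of the list were 0.27 and 0.36 beside 0.06 and -0.06 over all genes. The list does not hold the lysosomal Slc2a6 and the endolysosomal Slc31a2, both called lower. The called ones were Slc48a1, Slc36a1 and Slc38a7 in both genotypes and Slc17a5 (sialin, which exports sialic acid) in Apoe-/- alone, at 0.49 beside 0.40. Slc15a4, which carries histidine and peptides and serves endosomal Toll-like receptor signaling, changed by -0.35 and -0.39, and Slc38a9, an arginine sensor, by -0.10 and -0.11, neither called. The 21 members of family 35 were classed as nucleotide sugar carriers by family number alone, and not all carry nucleotide sugars. Of them, Slc35c2 (0.58) and Slc35f5 (0.50) were called higher in Apoe-/- and Slc35d1 (-0.57) lower in DKO. Among 7 vesicular carriers Slc17a9, a vesicular nucleotide carrier, was called beside Slc17a5 in Apoe-/-, by 0.51, and among 7 vitamin carriers the riboflavin carrier Slc52a3, by 0.59 at a mean of 0.346 RPKM. Slc17a5 and Slc17a9 lay at the limit on fold and lost their calls with a pseudocount of 1 RPKM, with rescaling, or without single libraries: untreated replicate 1 (0.43) or treated replicate 2 (0.40) for Slc17a5, and untreated replicate 2 (0.42) or treated replicate 3 (0.46) for Slc17a9. Slc49a4, an endolysosomal carrier for which no substrate class was set, rose by 0.53 and 0.66, and without Apoe-/- untreated replicate 1 or treated replicate 2 its change of 0.43 or 0.47 was not called. None of 6 lipid, acetyl-CoA and choline carriers was called, and Slc27a1, the fatty acid carrier with the highest level, changed by 0.36 and 0.27 (limma adjusted p = 6.79e-05 and 0.00104).

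The most abundant carriers of the remaining classes were not called. Slc8b1 (NCLX), which lets calcium out of the mitochondrion in exchange for sodium, stood between 25.01 and 40.17 RPKM over the 18 libraries and changed by 0.41 in Apoe-/- and 0.38 in DKO, short of the limit on fold. The phosphate carrier Slc20a1 (PiT-1) changed by 0.29 and 0.09 with a wide spread, 15.11 to 35.05 RPKM, and the Xist-positive library was the lowest in each of the 6 groups. The choline carrier Slc44a1 (CTL1) changed by -0.28 and -0.28, the ascorbate carrier Slc23a2 (SVCT2) by -0.02 and -0.0023, and Slc46a1 (PCFT), which takes up folate, by 0.17 and 0.10. None of these was called, and neither were Slc10a3 (0.05 and -0.15), Slc35f6 (0.24 and 0.14) and Slc35b1 (0.15 and -0.05). Among the 5 genes that are not carriers, the scaffold protein gene Slc9a3r1 (NHERF1) changed by 0.41 and 0.30 and Slc4a1ap by -0.0031 and -0.08, without a call.

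The sum of 6 macrophage markers overlapped between untreated and oxLDL 60 libraries, at 1461 to 1874 and 1509 to 1662 RPKM in Apoe-/-, whereas in DKO it was 1616 to 1798 RPKM untreated and 1488 to 1539 RPKM treated, without overlap. Within it, Adgre1 fell from a mean of 517 to 364 RPKM and Cd68 rose from 484 to 647 RPKM in Apoe-/-. The part of these shifts in the carrier changes was not tested.

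The lower dose asked whether the carriers answer in proportion. At oxLDL 10, 5 members were called in Apoe-/- (2 higher, 3 lower, 2.38% beside 2.79% of all genes, of which 0.748% higher and 2.04% lower) and 4 in DKO (2 higher, 2 lower, 1.90% beside 2.26%, of which 0.569% higher and 1.69% lower). Slc22a4 rose by 0.63 and 0.59 and Slc26a11 by 0.67 and 0.82, while Slc7a2 fell by 0.66 and 0.54 and Slc31a2 by 0.53 and 0.61. Slc28a2 fell by 0.56 in Apoe-/- (limma adjusted p = 0.0412) and changed by -0.58 in DKO (limma adjusted p = 0.0508), where the fit with the animal as a replicate block called it (adjusted p = 0.000117). The Slc28a2 call in Apoe-/- was lost without any of 5 libraries, untreated replicates 2 and 3 and treated replicates 1, 2 and 3 (changes -0.60 to -0.46), and that of Slc31a2 without untreated replicate 2 (-0.41) or treated replicate 1 (-0.48) or 3 (-0.44). The block also called Slc13a3 at -0.49 (adjusted p = 0.00659) and Slc25a18, a mitochondrial glutamate carrier, at -0.87 (adjusted p = 0.0374) in Apoe-/-, and Slc6a13 at -0.54 (adjusted p = 0.01) in DKO. Without DKO untreated replicate 3, Slc22a4 changed by 0.44 and was not called in DKO.

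Of the 26 carriers called at oxLDL 60 in both genotypes, 25 had a change of the same sign at oxLDL 10 in each genotype, and 12 in Apoe-/- and 9 in DKO had an adjusted p under 0.05 there. For each gene the log2 change at 10 µg/ml was divided by that at 60 µg/ml, and the median of the 26 fractions was 34.4% in Apoe-/- and 35.03% in DKO. Both doses share the untreated libraries. The comparison of oxLDL 60 with oxLDL 10 called 15 members in Apoe-/- (9 higher, 6 lower, 7.14% beside 6.46% of all genes, of which 2.91% higher and 3.54% lower) and 13 in DKO (8 higher, 5 lower, 6.19% beside 5.66%, of which 1.92% higher and 3.74% lower). With rescaled libraries it called 12 members higher and 3 lower in DKO, beside 361 higher and 359 lower over all genes. With the animal as a block, Slc2a6 and Slc6a12 were also called lower between the doses, by 0.82 and 1.03 in Apoe-/- and by 0.78 and 0.84 in DKO (adjusted p at most 1.15e-05), and Slc28a2 by 0.49 in Apoe-/- (adjusted p = 0.000209).

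**Figure D4:**
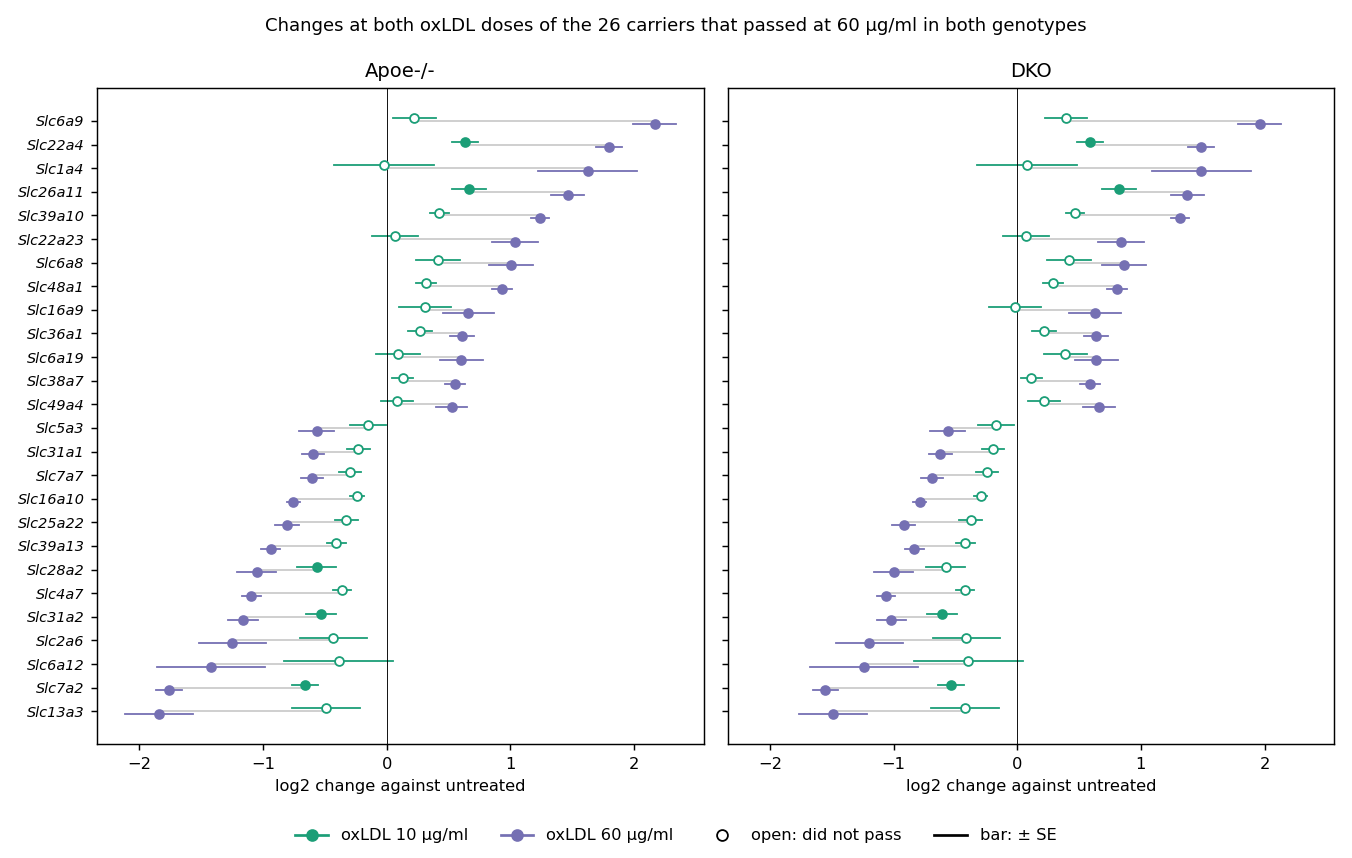
Log2 change against untreated (horizontal, ± SE from limma) at oxLDL 10 in green and oxLDL 60 in purple for the 26 carriers called at 60 µg/ml in both genotypes, Apoe-/- at the left and DKO at the right, with open points for changes that did not pass. Most changes at 10 µg/ml lie on the same side of 0 as at 60 µg/ml and nearer to it, while those of Slc6a9 (0.22 and 0.39) and Slc1a4 (-0.02 and 0.08) lie closer to 0 than those of Slc22a4 and Slc7a2.

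To ask whether Treml4 bears on the carriers, DKO was compared with Apoe-/- at each treatment. No member was called when untreated, at oxLDL 10 or at oxLDL 60 (0 of 210 each, beside 0.21%, 0.0857% and 0.125% of all genes by limma). An unadjusted limma p under 0.05 was held by 42, 19 and 25 members. These are 20%, 9.05% and 11.9% of the members beside 17.3%, 9.75% and 7.88% of all genes. The interaction of genotype with oxLDL 60 called 0 members beside 0.0156% of all genes, and that with oxLDL 10 called 0 beside 0%. There, 15 and 1 members had an unadjusted limma p under 0.05, or 7.14% and 0.476% beside 9.78% and 1.92% of all genes. The smallest limma adjusted p was 0.0681 untreated (the lactate carrier Slc16a1 and Slc37a2, with differences of 0.41 and 0.25), 0.267 at oxLDL 10 and 0.128 at oxLDL 60. A p above the limit does not show equal levels, and with 3 against 3 an exact two-sided permutation test cannot go below 0.10.

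The smallest p at oxLDL 60 was that of Slc36a2 (PAT2), a proton-coupled carrier of glycine, alanine and proline. It stood at 0.132, 0.162 and 0.259 RPKM untreated, 0.221, 0.217 and 0.213 RPKM with oxLDL 10 and 0.197, 0.164 and 0.116 RPKM with oxLDL 60 in Apoe-/-, and at 0.336, 0.259 and 0.267, then 0.272, 0.290 and 0.267, then 0.352, 0.308 and 0.380 RPKM in DKO. At both doses all DKO libraries lay above all Apoe-/- ones, and untreated DKO replicate 2 equalled Apoe-/- replicate 3 at 0.259 RPKM to 3 digits. The difference at oxLDL 60 was 0.80 (SE 0.17, limma adjusted p = 0.128). It passed with rescaled libraries (limma adjusted p = 0.0423), and again once Xist status entered the fit (limma adjusted p = 0.0466). Neither fit took the animal as a block, so libraries of the same animal counted as separate replicates in the spread. With the animal as a block, 0 members were called at oxLDL 60. Its paralog Slc36a1, on the same chromosome, differed by 0.12.

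The intestinal zinc importer Slc39a4 (ZIP4) differed at oxLDL 60 by -0.53 (SE 0.14) without a call (limma adjusted p = 0.266), with 9.41, 9.18 and 9.80 RPKM in Apoe-/- against 5.99, 5.79 and 8.00 RPKM in DKO. The libraries did not overlap, and DKO replicate 3, Xist-positive, was the nearest to Apoe-/-. Without the 6 Xist-positive libraries the difference was -0.70 (limma adjusted p = 0.00866), and with Xist status in the fit -0.53 (limma adjusted p = 0.019). Here too, neither fit took the animal as a block. The removal takes a replicate out of every group, DKO replicate 3 among them. Xist status marks Apoe-/- replicate 2 and DKO replicate 3 alone, so it cannot be told apart from other traits of those animals. Slc9a9, an endosomal sodium and proton exchanger, stood at 10.7, 11.6 and 11.7 RPKM against 8.62, 6.98 and 9.75 RPKM (-0.43, limma adjusted p = 0.31). Slc37a3, a sugar phosphate family member of the lysosome, differed by -0.34, Slc4a7 by 0.23 and the riboflavin carrier Slc52a2 by -0.24, with limma adjusted p from 0.44 to 0.53. The neutrophil and progenitor list summed to 28.4 to 70.7 RPKM over 5 genes in DKO libraries and to 25.1 to 41.8 RPKM in Apoe-/- libraries, while the fibroblast list ranged from 0.691 to 4.53 RPKM over 3 genes in DKO and from 0.430 to 11.9 RPKM in Apoe-/-. Ly6g, the defining neutrophil marker, reached at most 0.026 RPKM in any library. Untreated S100a8 and S100a9 averaged 20.85 and 30.25 RPKM in DKO and 13.34 and 16.94 RPKM in Apoe-/-. Untreated Mpo and Elane lay the other way, at 1.05 and 0.953 RPKM in DKO and 1.26 and 1.21 RPKM in Apoe-/-. The part of these lists in the genotype differences was not tested.

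Apart from Slc40a1, which was left out by name, 13 solute carriers that the study names among its genotype differences at oxLDL 60 were taken up, most of them near the limit of detection. Of these 13, 6 were members and 7 stayed under the limit, with highest values of 0.0155 RPKM for the glutamate carrier Slc1a2 to 0.0499 RPKM for Slc16a8. The members besides Slc36a2 averaged 0.0445 to 0.313 RPKM and differed between genotypes at oxLDL 60 by 0.70 for the monocarboxylate family member Slc16a4, 0.41 for the sodium and proton exchanger Slc9a4, -0.39 for the zinc carrier Slc39a12, -0.61 for the vesicular polyamine carrier Slc18b1 and -0.51 for Slc16a12, none called. A list the study chose on these samples is not independent evidence of a direction. Slc16a4 ranged from 0 to 0.155 RPKM over the 18 libraries, so that some of its values rest on 0 or few reads.

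**Figure D5:**
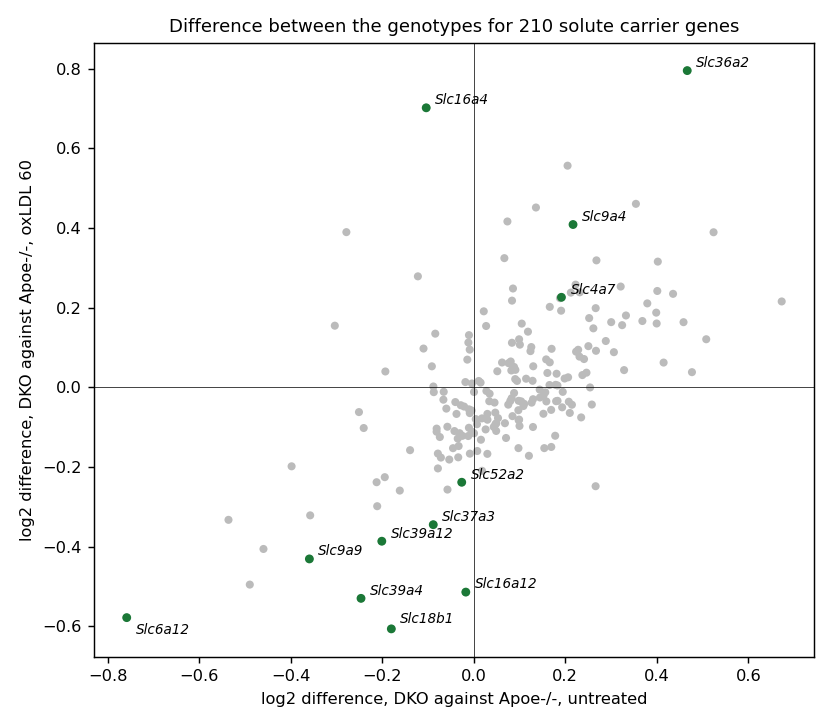
Each point is 1 of the 210 solute carrier genes, placed by its log2 difference between DKO and Apoe-/- macrophages when untreated (horizontal) and at oxLDL 60 (vertical). A selection of the genes described in the text is labeled in green. No gene passed at either treatment, and Slc36a2 lies highest at oxLDL 60 with 0.80.

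Carriers whose symbol does not begin with Slc and a digit, and partner subunits of carriers, were read outside the rule. Of 31 listed, 22 were tested, and 4 were called higher and 2 lower at oxLDL 60 in Apoe-/-, and 3 higher and 2 lower in DKO. Calls in either direction made up 13.9% of all genes in Apoe-/- and 12.2% in DKO. The partner subunits Bsg and Emb were tested and not called. The organic anion carriers of family 21 split. Slco3a1 fell from 3.78, 5.03 and 4.47 to 0.705, 0.620 and 0.706 RPKM in Apoe-/- and from 4.41, 4.08 and 5.07 to 0.895, 0.908 and 0.818 RPKM in DKO, or by 2.53 and 2.24 (SE 0.13), a larger change than that of any of the 210 members. Slco4a1, a thyroid hormone carrier, fell by 1.30 and 1.35 and Slco2b1, a carrier of steroid sulfates and statins, rose by 1.15 and 0.84. Flvcr1, a choline and heme carrier of family 49, rose by 0.72 and 0.62, and Npc1, the lysosomal cholesterol exporter, rose by 0.74 and 0.72. Slco3a1 was called at oxLDL 10 in both genotypes and Slco4a1 in DKO, and none of the 22 was called between genotypes.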

How the data were processed

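RNA of 18 BMDM libraries was examined. The authors aligned the reads with STAR (genome build mm10, per the submitters' processing notes) and deposited 1 table of RPKM values for 18668 symbols. The study's methods also list Eland for a first alignment and a workflow that includes RnaSeqC and "Subred", without saying which step made the counts. The annotation and the use of strand in counting are not given in the sources used here, and labels list differing read lengths and platforms. All columns of the table were used. RPKM are scaled to each library's reads, so a few very abundant RNAs lower all other values of a library. The table holds 24 symbols turned into dates and 2 duplicated symbols, kept as separate genes. The study's test needs counts, so limma was used instead.

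Values were analysed as log2(RPKM + 0.1), which understates fold changes of low genes, after removal of genes that reached 0.1 RPKM in fewer than 3 libraries. With limma 3.58.1 (R 4.3.3, eBayes with trend) a mean was estimated for each of the 6 groups from the 18 libraries together. Calls needed a Benjamini-Hochberg adjusted p under 0.05 over all genes tested and a fold change of at least 1.4, and the fit was tested on simulated data. Depth was recovered from the steps of low values with GENCODE M21 lengths: 82.7% of 45070 low values lay within 0.05 of a whole number of reads. Such limits cover counting error only. Summaries and figures used pandas 2.3.3, matplotlib 3.10.9, numpy 2.4.6 and Python 3.11.15. Positions of genes come from GENCODE M21, which gave 209 of 210 members, and promoters from RefSeq. Of member promoters compared with transcripts, 155 of 217 had the 30 bases after the start in a transcript of the gene on the same strand and 0 on the other.

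Groups and replicate numbers came from the labels. In each genotype, deviations from the group means correlated positively in all 18 same-number pairs (0.183 to 0.695, median 0.405, against a median of -0.347 for other numbers), so the numbers were taken as animals. Alternatives were a pseudocount of 1 RPKM, no filter, libraries rescaled by the median ratio, only the groups compared, the animal as a block, no limit on fold, a term for or removal of Xist-positive libraries (over 1 RPKM), and leaving out each replicate. Substrate classes follow family numbers. Named were, by rule, members of at least 1 RPKM called at oxLDL 60 in both genotypes or at oxLDL 10, the smallest p between genotypes, the most abundant members, the first 2 of each class, and carriers the study names. Others complete a count or a list and were named after their values were seen. The members and all lists were chosen with earlier results of these data known.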

Additional observations from a re-analysis of the deposited data

Results flagged for a closer look

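In 4 of the carriers named by rule, every animal of 1 genotype moved one way at oxLDL 60 and every animal of the other moved the opposite way. Slc52a2 had been named for its p between genotypes, and Slc16a4 because the study names it. The share of all members or of all genes that do so was not computed. Positive changes made up 65.2% of members in Apoe-/- and 52.4% in DKO, beside 59.7% and 38.1% of all genes. The monocarboxylate family member Slc16a4 had log2 changes of -0.397 (Apoe-/-) and 0.409 (DKO), at levels of 0 to 0.155 RPKM. The adenine nucleotide carrier Slc25a5 changed by 0.154 and -0.096, the Slc35b1 gene, whose product exchanges ATP and ADP across the endoplasmic reticulum membrane, by 0.148 and -0.0486, and the riboflavin carrier Slc52a2 by 0.107 and -0.105. None of the 8 changes was called, and none of the 4 genes was called by the interaction of genotype and oxLDL 60 in limma (adjusted p from 0.51 to 0.55). The medians over all genes differed in the same direction in Slc25a5, Slc35b1 and Slc52a2, at 0.06 in Apoe-/- and -0.06 in DKO.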

How the results depend on the processing

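Counts of called members moved by over 1.5 times under a few alternatives. Without a limit on fold change they were 72 and 59 at oxLDL 60 in Apoe-/- and DKO (41 and 30 with it), 19 and 14 at oxLDL 10, and 33 and 33 for oxLDL 60 against oxLDL 10. With only the compared groups fitted, oxLDL 10 called 3 in Apoe-/-, and with a pseudocount of 1 RPKM, oxLDL 60 against 10 called 8 in DKO. Between genotypes, a term for Xist-positive libraries called 2 untreated (Slc52a3, Slc6a12), 3 at oxLDL 10 (Slc16a6, Slc6a12, Slc7a4) and 2 at oxLDL 60 (Slc36a2, Slc39a4), removing those libraries called 5, 2 and 2 (Slc39a4 and Slc2a6 at oxLDL 60), and rescaling called 1 at oxLDL 60 (Slc36a2). Over all genes the rescaled comparison of genotypes at oxLDL 60 called 13 higher and 5 lower. The cause was not tested.

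Leaving out 1 replicate at a time gave 35 to 39 calls at oxLDL 60 in Apoe-/-, 26 to 31 in DKO, 3 to 5 and 4 to 6 at oxLDL 10, 13 to 15 and 10 to 15 for oxLDL 60 against 10, and 0 between genotypes and for both interactions. The 3 at oxLDL 10 in Apoe-/- came without untreated replicate 2 or treated replicate 1 or 3. With the animal as a replicate block there were 43 and 31 calls at oxLDL 60, 7 and 6 at oxLDL 10, 18 and 15 for oxLDL 60 against 10, and 0 between genotypes and for the interactions. It changed no other call than those given beside the results and 3 more gains at oxLDL 60: Slc25a18 (-0.72) and Slc45a3 (0.64) in Apoe-/- and Slc29a2 (-0.49) in DKO. Rescaling moved the median of all genes in the oxLDL 60 interaction by 0.12.

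For the named genes, 1194 alternative values were computed, for 80 called changes and for the uncalled genotype differences at oxLDL 60 given above. Of the values, 1115 kept direction and side of the threshold, 75 lost the call, 4 gained one and 0 reversed. The 4 gains were in the genotype differences of Slc36a2 and Slc39a4, and the losses were among the called changes. Depth limits carriers under about 0.0755 RPKM, where a level can rest on 3 reads or fewer per kb.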
